A study of Mus musculus with 3 samples.

Results

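The cells described here are thin limb-like cells with high Cryab, 96 of the 51795 barcodes kept from 3 droplet single-cell libraries of whole mouse kidney. A barcode was taken when it held at least 10 UMIs (unique molecular identifiers, each standing for 1 captured RNA molecule) of Cryab and when Cryab made up at least 0.4% of its UMIs. It also had to hold at most 1 UMI of Slc12a1 (the transporter of the thick ascending limb), at most 1 of Aqp2 (the water channel of collecting duct principal cells) and at most 3 of Slc34a1 (the phosphate transporter of the proximal tubule). Barcodes with under 200 genes, or with over 50% of UMIs from mitochondrial genes, had been left out. The rule found 31 cells in the db/db fructose library, 19 in the db/db control library and 46 in the db/m control library.

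The thin limb is the flat, slender part of the loop of Henle between the proximal tubule and the thick ascending limb. Its descending part lets water leave through the channel Aqp1, and in the lower stretch of short loops it carries the urea transporter encoded by Slc14a2. These segments run through the salt- and urea-rich medulla, where cells hold organic osmolytes and heat shock proteins that protect other proteins. Cryab is one such protein, a small heat shock protein also known as alpha-B crystallin.

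All mice were male, were 28 weeks old and had been on their diet for 20 weeks, from 8 weeks of age. The db/db mice carry a leptin receptor mutation on both copies and become obese and diabetic. One db/db group ate a diet with 60% fructose, and the other a control diet without fructose. The db/m mice, which carry 1 normal copy of the gene and stay lean, ate the control diet. Each group gave 1 library, and how many mice stand behind a library is not stated in the sources used here. No difference below therefore has a replicate check, nothing was tested, and each 95% interval covers counting error only.

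The libraries differed in depth and quality, also within the selected cells. The kept barcodes numbered 19321 in db/db fructose, 21218 in db/db control and 11256 in db/m control. The selected cells were deep, with medians of 5676 UMIs in db/db fructose, 5102 in db/db control and 6173 in db/m control, against 1565, 1641 and 1674 in all kept barcodes of these libraries. Their median share of mitochondrial UMIs was 4.58% in db/db fructose, 8.58% in db/db control and 5.75% in db/m control, against 10.9%, 25.8% and 15.5% in all kept barcodes. Summed over the cells, there were 253135 UMIs in db/db fructose, 124982 in db/db control and 358666 in db/m control, so the db/db control values are the least precise. Pairs of libraries shared 379 to 780 barcodes. No cell was selected under the same barcode in 2 libraries, but 4 barcodes selected in db/db fructose also occur in db/m control, and 3 selected in db/m control also occur in db/db control. Scrublet, a doublet caller, marked 0 of the 96 cells.

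Cryab chose the cells, so its level is given as a description. Cells of the db/db fructose library held 10 to 480 Cryab UMIs with a median of 72, those of db/db control 10 to 207 with a median of 43, and those of db/m control 14 to 270 with a median of 61.5. The nearest barcodes that failed only this minimum had 8 UMIs in db/db fructose, 8 in db/db control and 9 in db/m control. Of barcodes that failed only the minimum share, there were 10 in db/db fructose, 12 in db/db control and 25 in db/m control, and the nearest had 0.391%, 0.387% and 0.329% of their UMIs from Cryab. The nearest selected cells had 0.409% in db/db fructose, 0.454% in db/db control and 0.408% in db/m control. Of the barcodes that failed only the Aqp2 limit, 3 in db/db fructose, 1 in db/db control and 2 in db/m control, the nearest had 40, 171 and 196 Aqp2 UMIs, far outside it. The limits on Slc12a1 and Slc34a1 alone left out 8 and 9 barcodes of db/db fructose, 4 and 4 of db/db control, and 3 and 11 of db/m control, and the nearest held 2 Slc12a1 UMIs and 4 Slc34a1 UMIs in each library.

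The selected cells made up 0.160% of kept barcodes in db/db fructose (exact Clopper-Pearson 95% interval 0.109 to 0.228). They made up 0.0895% in db/db control, with an interval of 0.0539 to 0.140. In db/m control the share was 0.409%, with an interval of 0.299 to 0.545. The db/m control interval lies above both db/db intervals, and the db/db intervals overlap. The gap to db/db fructose depended on the rule. With Cryab at 0.8% of UMIs the intervals were 0.0879 to 0.197 in db/db fructose, 0.0396 to 0.117 in db/db control and 0.158 to 0.349 in db/m control, so that those of db/db fructose and db/m control overlap. They also overlap with Slc12a1, Aqp2 and Slc34a1 all at 0, at 0.0248 to 0.0952 in db/db fructose, 0.000119 to 0.0263 in db/db control and 0.0366 to 0.152 in db/m control. Among kept barcodes with at least 2500 UMIs the shares were 0.698% in db/db fructose, 0.401% in db/db control and 1.65% in db/m control. Mitochondrial share and the number of kept barcodes differed between the libraries too, and their part in these shares was not tested.

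**Figure D1:**
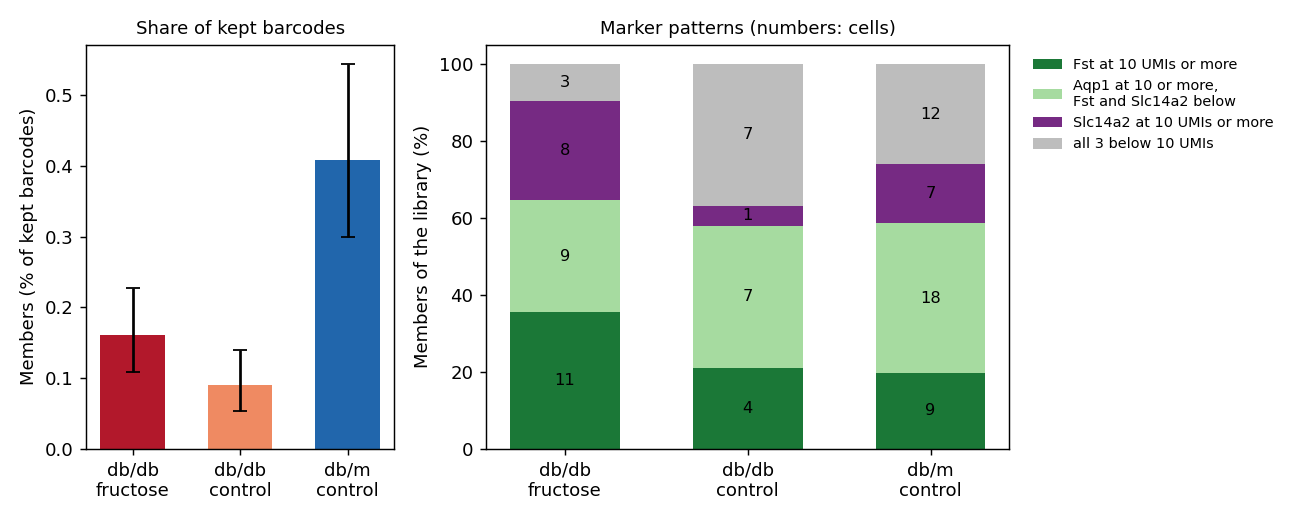
Left, selected cells as a percentage of the kept barcodes of each library, with exact 95% binomial intervals: 0.160% in db/db fructose, 0.0895% in db/db control and 0.409% in db/m control. Right, the selected cells of each library split by which of Fst, Aqp1 and Slc14a2 reached 10 UMIs, with the number of cells in each part.

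The label was compared with marker lists. Of 8 descending thin limb markers, 7 were at least 2-fold above the other kept barcodes in db/db fructose, 7 in db/db control and 6 in db/m control. Among all measured genes, 55.2%, 70.2% and 44.4% were that far above them in the same order of libraries, so the counts alone say little. The summed level of the 8 markers was 13214 CPM in db/db fructose, 11722 in db/db control and 11663 in db/m control (counts per 1000000 UMIs of the selected cells of a library), against 103, 78.5 and 132 CPM in the other kept barcodes. Unc5d gave no UMI in any library, and Sptssb none in db/m control. Of 5 ascending thin limb markers, 1 (Cldn4) was at least 2-fold above the other kept barcodes in each library. Cldn10 had 0 counts in db/db fructose, 2 in db/db control and 6 in db/m control, Prox1 had 0 counts in db/db fructose, 1 in db/db control and 0 in db/m control, and Sh3gl3 was at 0 in the selected cells and in the other kept barcodes alike. The name thin limb-like thus rests on sums of the descending thin limb markers. That list holds Aqp1, Fst and Slc14a2, markers named for these cells in advance, so it is no independent check. In 22 of the 96 cells these 3 genes were each below 10 UMIs. Those 22 cells had 185 CPM of Aqp1, 175 of Fst, 10.3 of Slc14a2 and 61.8 of Slc4a11. For them the list gives little beyond Bst1, at 1112 CPM.

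Summed levels of proximal, thick ascending limb and other cells' markers were compared with the other kept barcodes. The 13 proximal tubule markers summed to 514 CPM in db/db fructose, 936 CPM in db/db control and 2643 CPM in db/m control, against 12875, 9098 and 15397 CPM in the other kept barcodes. The 9 thick ascending limb markers summed to 960 CPM in db/db fructose, 888 in db/db control and 887 in db/m control, against 4989, 3922 and 4296 CPM. Of these 9, Cldn19 was more than 2-fold above the other kept barcodes in each library, with 221 CPM in db/db fructose, 232 in db/db control and 151 in db/m control. The 8 markers of the late proximal segment summed to 439 CPM in db/db fructose, 360 CPM (263 to 482) in db/db control and 569 CPM in db/m control, against 848, 396 and 1677 CPM, and the db/db control interval includes the level of its other barcodes. Of these 8, 2 were at least 2-fold above the other kept barcodes in db/m control and none in either db/db library. The 7 urothelium markers were above the other barcodes, at 35.6 CPM in db/db fructose, 16.0 in db/db control and 16.7 in db/m control against 3.89, 3.03 and 4.05 CPM, but from only 9, 2 and 6 counts. The 5 distal convoluted tubule markers summed to 90.9 CPM in db/db fructose, 352 in db/db control and 53.0 in db/m control, and the 10 principal cell markers to 51.4 CPM in db/db fructose, 280 in db/db control and 181 in db/m control, both highest in db/db control. Their part in the comparisons below was not tested. Some ratios are also given without cells that held 3 or more UMIs of other cells' markers. Here these are the markers of principal cells, podocytes, endothelium, mural cells, mononuclear phagocytes, lymphocytes and neutrophils. Distal convoluted tubule, proximal tubule and intercalated cell markers took no part in that filter. Of the 4 parietal epithelium markers, Akap12 carried nearly the whole sum of 1110 CPM in db/db fructose, 632 in db/db control and 636 in db/m control, with 1098 CPM in db/db fructose, 632 in db/db control and 591 in db/m control. All 5 neutrophil markers were at 0 in each library, and of the 10 mural cell markers 9, 9 and 8 were at 0. Slc14a1, the urea transporter of the descending vasa recta, a vessel that also carries Aqp1, was at 0 in all 3 libraries. Some sums came from single cells. The most UMIs of a list in 1 cell were 65 of 78 for mononuclear phagocyte markers in db/db control (624 CPM, against 301 CPM in its other barcodes), 405 for proximal tubule markers in db/m control and 51 for intercalated cell markers in db/m control.

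Aqp1 was the most abundant of the markers that took no part in the selection. It had 1346 counts in db/db fructose, or 5317 CPM (5037 to 5609), 735 counts in db/db control, or 5881 CPM (5463 to 6322), and 2079 counts in db/m control, or 5796 CPM (5550 to 6051). These levels were 89.7 in db/db fructose, 93.2 in db/db control and 58.8 in db/m control times those in the other kept barcodes. With each cell thinned to 1000 UMIs, Aqp1 was detected in 67.7% of the selected cells in db/db fructose, 73.7% in db/db control and 65.2% in db/m control, against 5.80%, 6.35% and 9.18% of cells with the proximal type of markers, and unthinned in 67.7%, 73.7% and 67.4%. Thinning left out none of the selected cells, and 69, 24 and 63 of 1000 proximal type cells drawn per library. Aqp1 lies at chr6:55336432-55348555 on the plus strand of mm10, and Cryab at chr9:50751325-50756636 on the plus strand.

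Fst, which encodes follistatin, a secreted binder of activins, had 4800 CPM (4534 to 5077) in db/db fructose, 4153 CPM (3803 to 4526) in db/db control and 2127 CPM (1979 to 2284) in db/m control. Slc14a2 had 1738 CPM (1580 to 1908) in db/db fructose, 248 CPM (169 to 352) in db/db control and 2253 CPM (2100 to 2414) in db/m control. Bst1, an enzyme that makes cyclic ADP-ribose, had 608 CPM in db/db fructose, 920 in db/db control and 1009 in db/m control, and Slc4a11, a membrane transporter of the bicarbonate transporter family, had 711 CPM in db/db fructose, 400 in db/db control and 429 in db/m control. Aqp1 was level across the libraries, whereas Fst was lowest in db/m control and Slc14a2 lowest in db/db control.

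By the ratio to the other kept barcodes, taking the smallest of the 3 libraries, 20 genes led. Besides Aqp1, Fst, Slc14a2, Bst1 and Slc4a11 they were Lypd2, Cfap52, Tert, Phgdh, Proser2, Uncx, Ifit3b, Misp, Ifit3, Akap12, Parm1, Angpt2, Frzb, Nbl1 and Cib2. Tert, the catalytic protein of telomerase, had 233 CPM in db/db fructose, 192 in db/db control and 287 in db/m control, against 2.02, 0.906 and 1.63 CPM in the other kept barcodes. Phgdh, the first enzyme of serine synthesis, had 747 CPM in db/db fructose, 672 in db/db control and 666 in db/m control, against 9.06, 9.18 and 7.19 CPM. Cfap52, a protein of cilia, had 201 CPM in db/db fructose, 240 in db/db control and 167 in db/m control, against at most 0.874 CPM. Angpt2, a secreted ligand of the Tie2 receptor on vessels, had 411 CPM in db/db fructose, 200 in db/db control and 351 in db/m control, against 7.65, 1.81 and 3.42 CPM. Ifit3, an interferon-induced gene, had 427 CPM in db/db fructose, 312 in db/db control and 480 in db/m control, against 7.63, 3.03 and 4.65 CPM. Because these cells were chosen by their own counts, the excess over other barcodes is a description. Of the measured genes, 55.2% in db/db fructose, 70.2% in db/db control and 44.4% in db/m control were at least 2-fold higher than in the other kept barcodes.

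**Figure D2:**
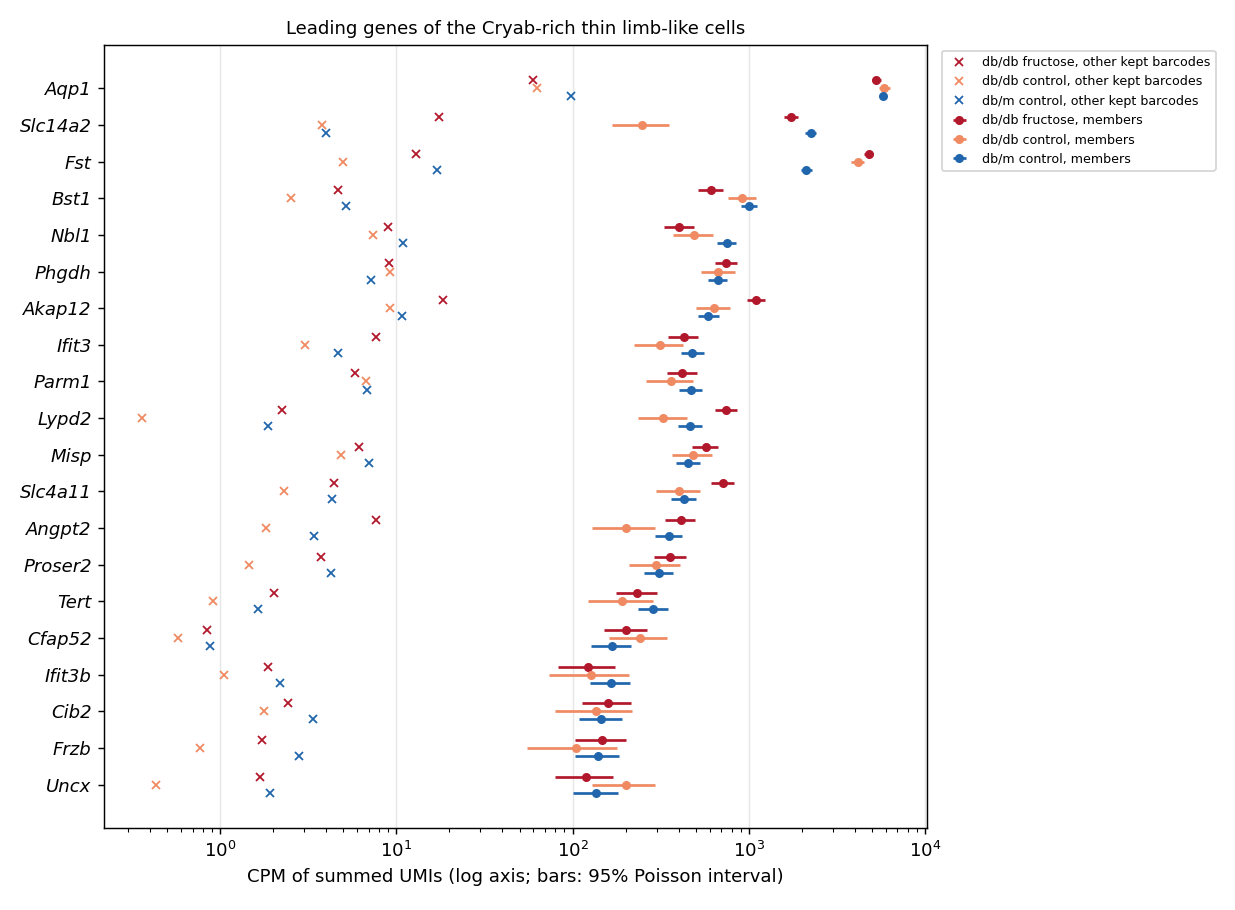
CPM on a log axis of the 20 leading genes in the selected cells (circles, with 95% Poisson intervals) and in the other kept barcodes (crosses) of each library. For every gene all 3 circles lie to the right of all 3 crosses, and Slc14a2 has the widest gap between libraries, with 1738 CPM in db/db fructose, 248 in db/db control and 2253 in db/m control.

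The cells were not of 1 kind. Slc14a2 reached at least 10 UMIs in 16 of the 96 cells, and 14 of those 16 had no Aqp1 UMI. Fst reached 10 UMIs in 24 cells, and each of these also had at least 10 Aqp1 UMIs. No cell held 10 UMIs of both Fst and Slc14a2. A further 34 cells had Aqp1 at 10 UMIs or more with the other genes below 10, and 22 had all 3 genes below 10. This split by 10 UMIs was chosen after the values were seen.

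The Slc14a2-rich cells numbered 8 of 31 in db/db fructose, 1 of 19 in db/db control and 7 of 46 in db/m control. They held 97.3% of the Slc14a2 counts in db/db fructose, 93.5% in db/db control and 98.8% in db/m control. Their medians were 49.5 UMIs per cell in db/db fructose, 29 in db/db control and 133 in db/m control. The low Slc14a2 level of db/db control thus came with a single rich cell. Its level per library is a count of few cells, and with 1 of 19 the exact interval of the share runs up to 26.03%, which overlaps those of the other libraries (11.9 to 44.6% in db/db fructose and 6.34 to 28.9% in db/m control). Corin, a membrane protease known for processing atrial natriuretic peptide in the heart, was detected in 14 of the 96 cells, and 11 of those had at least 10 Slc14a2 UMIs. Corin gave 32 counts in db/db fructose, 1 in db/db control and 91 in db/m control, in 6, 1 and 7 cells.

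**Figure D3:**
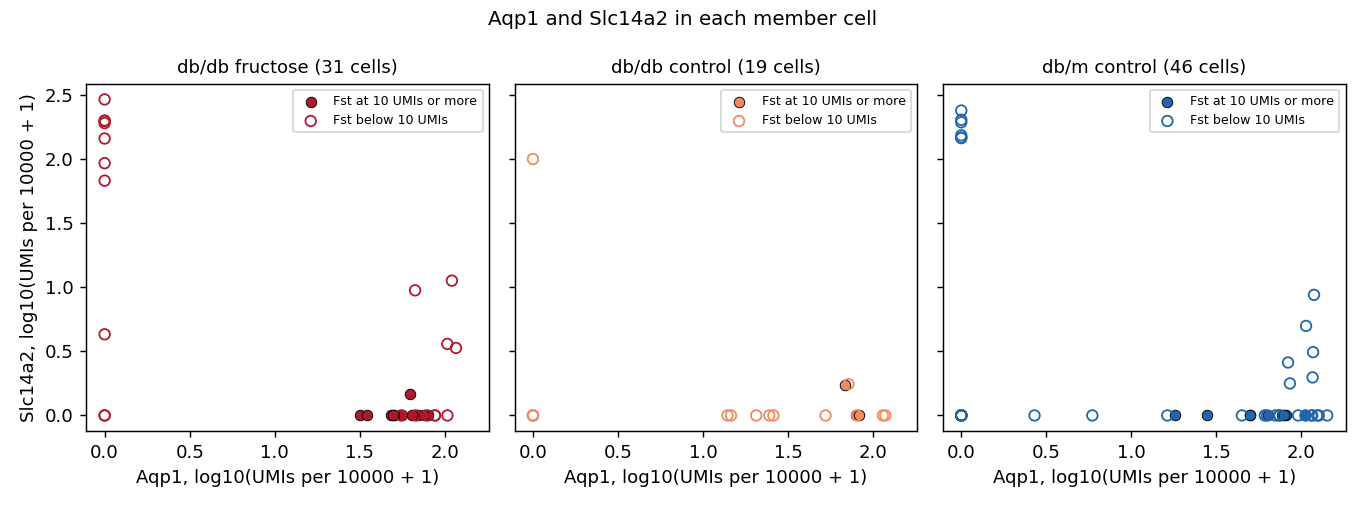
Each point is 1 selected cell, with Aqp1 (horizontal) and Slc14a2 (vertical) as log10(UMIs per 10000 + 1), and filled points mark cells with at least 10 Fst UMIs. Cells rich in Slc14a2 sit on the left edge with no Aqp1, apart from 1 each in db/db fructose and db/m control, and filled points lie at high Aqp1.

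The Fst-rich cells numbered 11 of 31 in db/db fructose, 4 of 19 in db/db control and 9 of 46 in db/m control, and were the deepest, with a median of 12067.5 UMIs over the libraries. Those with Aqp1 alone numbered 9 in db/db fructose, 7 in db/db control and 18 in db/m control. Those with none of the 3 genes at 10 UMIs numbered 3 in db/db fructose, 7 in db/db control and 12 in db/m control and were the shallowest, with a median of 3374 UMIs. Depth thus differed between the sets, and its part in the split was not tested. The Fst-rich cells held 64.0% of the summed UMIs in db/db fructose, 41.7% in db/db control and 30.6% in db/m control, and the Slc14a2-rich cells 15.3%, 2.35% and 17.9% in the same order. Any ratio of summed counts below therefore also carries this mix of cells, and the part of the mix was not tested.

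Clustering of the cells without the 4 genes of the rule gave 3 subsets, described here by their leading genes only. Subset 1 held 39 cells with 8149 CPM of Aqp1, 558 CPM of the tight junction gene Cldn4 and 1919 CPM of Akr1b3. It was led by Ppp1r1b, Nr2e3 and Fxyd4. Its leading genes also held the proximal tubule genes Napsa, Slc27a2 and Kap, detected in 13, 25 and 27 of the 39 cells. Umod, a thick ascending limb marker, was at 1061 CPM in subset 1, 79.9 CPM in subset 2 and 834 CPM in subset 3. Slc6a18, of the late proximal list, was at 137 CPM in subset 1, 300 CPM in subset 2 and 27.4 CPM in subset 3. It was detected in 28 of the 30 cells of subset 2. Subset 2 held 30 cells with 7071 CPM of Fst, 6243 CPM of Aqp1, 911 CPM of Slc4a11 and 2344 CPM of Hspb1, and it was led by Fst, Car14 (a membrane carbonic anhydrase), Cdh13 and Slc9a3 (a sodium-proton exchanger). Subset 3 held 27 cells with 8405 CPM of Slc14a2 but only 103 CPM of Aqp1, and it was led by Corin, Lratd1 and Slc14a2. Slc14a2 and Corin were each detected in 14 of these 27 cells, so 13 of them held no Slc14a2 UMI. Id1 and Id3, targets of bone morphogenetic protein signalling, were at 1552 and 4267 CPM in subset 3, against 120 and 173 CPM in the other cells. The subset sizes per library were 9, 8 and 22, then 14, 7 and 9, then 8, 4 and 15 cells in db/db fructose, db/db control and db/m control. They are not compared, since genes that define the subsets differ between the libraries.

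The diet comparison set the db/db fructose cells over the db/db control cells, and the genotype comparison the db/db control cells over the db/m control cells. The db/db control sums serve in both, so the comparisons are not independent. A gene was measured with at least 20 counts and 50 CPM in the library where it was higher, and called at a ratio of 2-fold or more. Over db/db control, 204 of 1995 measured genes (10.2%) were at least 2-fold higher and 33 (1.65%) at least 2-fold lower in db/db fructose. Over db/m control, 27 of 2881 measured genes (0.937%) were at least 2-fold higher and 457 (15.9%) at least 2-fold lower in db/db control. A call is a size only. In simulated data 5.57% of unchanged genes for the diet and 15.3% for the genotype were past 2-fold. The counting interval excluded equal levels for 121 of the 204 higher genes and all 33 lower genes of the diet, and for all 27 higher but 207 of the 457 lower genes of the genotype. The intervals of the other calls include equal levels. A list whose share of called genes is near these shares shows nothing particular to it. The minimum of 20 counts is 79.0 CPM in db/db fructose, 160 CPM in db/db control and 55.8 CPM in db/m control. With the same minimum of 160 CPM for every library, 51 genes (4.39%) were higher and 33 (2.84%) lower in db/db fructose than in db/db control, of 1162 measured. With that minimum 27 (2.24%) were higher and 53 (4.39%) lower in db/db control than in db/m control, of 1208 measured. The median log2 ratio over all measured genes was 0.30 for the diet and -0.37 for the genotype, and 0.17 and -0.09 with the same minimum. Median-of-ratios scaling would shift the log2 ratios by -0.30 and 0.36. It would make 62.4% of the called genes higher for the diet, in place of 86.1%, and 22.2% for the genotype, in place of 5.58%.

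Hspb1, the other small heat shock protein of the list that was measured, had 463 counts in db/db fructose, or 1829 CPM (1666 to 2004), 211 in db/db control, or 1688 CPM (1468 to 1932), and 221 in db/m control, or 616 CPM (538 to 703). Both db/db libraries were thus above db/m control with no overlap of intervals. The log2 ratio was 0.12 (-0.12 to 0.36) for the diet and 1.45 (1.18 to 1.73) for the genotype. Over the alternatives the genotype ratio ranged from 1.22 to 2.82, the last among cells with at least 0.8% Cryab. Cryab itself, which the rule selected on, had log2 ratios of 0.10 and 0.12. Of the 8 small heat shock genes, Cryab and Hspb1 were measured in both comparisons. None was past 2-fold for the diet, and Hspb1 was for the genotype, where 0.937% of all measured genes were higher.

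Hspb1 also varied by kind of cell. In Fst-rich cells it had 2659 CPM in db/db fructose, 3265 CPM in db/db control and 1738 CPM in db/m control. The genotype difference there was under 2-fold. In cells with Aqp1 alone it had 454 CPM in db/db fructose, 425 in db/db control and 50.6 in db/m control, in those with none of the 3 genes at 10 UMIs 1044 CPM in db/db fructose, 972 in db/db control and 212 in db/m control, and in Slc14a2-rich cells 51.8 CPM in db/db fructose, 0 in db/db control and 156 in db/m control. The higher level in both db/db libraries was present in the first 3 of these sets and not in the Slc14a2-rich cells, of which db/db control had 1. In thick ascending limb type cells, defined by Slc12a1, Hspb1 was at 70.3 CPM in db/db fructose, 27.6 in db/db control and 17.5 in db/m control.

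The sequence before the Hspb1 start is shown because this gene had the largest genotype ratio among the measured small heat shock genes and chaperones. RefSeq's promoter table (GRCm38.p6, the mm10 assembly) holds 1 entry for Hspb1. The 250 bases on the plus strand, chr5:135887669-135887918, run 5′ to 3′, with capitals for the motif letters GAANNTTC and for TTTCCA:

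Hspb1: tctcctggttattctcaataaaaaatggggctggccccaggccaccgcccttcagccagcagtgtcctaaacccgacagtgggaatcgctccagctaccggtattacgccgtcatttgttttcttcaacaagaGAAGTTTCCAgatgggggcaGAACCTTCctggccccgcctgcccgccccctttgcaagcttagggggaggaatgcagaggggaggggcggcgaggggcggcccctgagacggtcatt

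GAANNTTC and TTCNNGAA, each the same on both strands, are the core arrangements of the heat shock element, and this window holds 2 of the first. TGGAAA, or TTTCCA on the other strand, is the core of the tonicity element bound by Nfat5, and the window holds 1, which overlaps the first heat shock core. Of 32851 promoter windows of this length, 12.8% hold a heat shock core and 18.6% a tonicity core. These are matches of letters and say nothing of binding.

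Of 15 genes of the heat shock response, 12 were measured for the diet, with 1 higher and 1 lower, and 14 for the genotype, with 0 higher and 2 lower, beside 10.2% higher for the diet and 15.9% lower for the genotype over all measured genes. The medians were 0.37 and -0.40, beside 0.30 and -0.37 over all measured genes. Hspa8, the constitutive Hsc70, had 877 CPM in db/db fructose, 608 in db/db control and 1001 in db/m control, with log2 ratios of 0.53 (0.15 to 0.92) and -0.72 (-1.10 to -0.36). Hspa1b, an inducible Hsp70, had 170 CPM in db/db fructose, 352 in db/db control and 296 in db/m control, with -1.05 (-1.69 to -0.41) for the diet. Stip1, a co-chaperone, had 107 CPM in db/db fructose, 48.0 in db/db control and 114 in db/m control, with 1.15 (-0.15 to 2.72) and -1.25 (-2.78 to -0.01). Among cells with fewer than 3 UMIs of other cells' markers its ratios were 0.17 and -0.52, and that of Hspa1b for the diet was -0.79. Of the unfolded protein response, 1 of 9 measured genes was higher for the diet (Herpud1, with 257 CPM in db/db fructose, 120 in db/db control and 156 in db/m control and a ratio of 1.10, or 0.79 with median-of-ratios scaling), and none of 13 was past 2-fold for the genotype.

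Summed over the selected cells, most measured osmolyte genes differed by less than 2-fold. Akr1b3, aldose reductase, which makes sorbitol, had 1355 CPM in db/db fructose, 1472 CPM in db/db control and 1204 CPM in db/m control, against 40.1, 27.6 and 47.8 CPM in the other kept barcodes. It was not level within each kind of cell. In Fst-rich cells Akr1b3 had 1289 CPM in db/db fructose, 1651 in db/db control and 728 in db/m control, and in cells with Aqp1 alone 1814 CPM in db/db fructose, 952 in db/db control and 2435 in db/m control. In cells with none of the 3 genes at 10 UMIs it had 2278 CPM in db/db fructose, 2283 in db/db control and 303 in db/m control. Slc6a12, the betaine transporter, had 119 CPM in db/db fructose, 96.01 in db/db control and 55.8 in db/m control, against at most 2.43 CPM in other barcodes, and Slc6a6, the taurine transporter, had 676 CPM in db/db fructose, 832 in db/db control and 566 in db/m control. Slc5a3, the inositol transporter, was the 1 gene of 6 measured that was past 2-fold for the diet. It had 66 counts in db/db fructose, 11 in db/db control and 47 in db/m control, or 261 CPM in db/db fructose, 88.0 in db/db control and 131 in db/m control, with a log2 ratio of 1.57 (0.63 to 2.64) for the diet and -0.57 (-1.67 to 0.39) for the genotype. In thick ascending limb type cells Slc5a3 had 1652 CPM in db/db fructose, 726 in db/db control and 932 in db/m control, with a diet ratio of 1.19. None of the 6 measured osmolyte genes was past 2-fold for the genotype. Over all measured genes 10.2% were higher for the diet. Nfat5, the tonicity-responsive transcription factor, had 186 CPM in db/db fructose, 232 in db/db control and 243 in db/m control. Of the 10 genes of fructose and polyol handling 2 were measured, and neither was past 2-fold in either comparison.

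Of 16 genes of water, urea and ion transport, 2 of 9 measured were higher for the diet and 1 of 7 was lower for the genotype, beside 10.2% higher and 15.9% lower over all measured genes. Slc14a2 was called in both, with log2 ratios of 2.81 (2.28 to 3.38) and -3.18 (-3.75 to -2.67), and rests on the few rich cells described above. Over the alternatives they ranged between 2.36 and 6.83 and between -7.18 and -2.17. Atp1b1 had 5108 CPM in db/db fructose, 4233 in db/db control and 3783 in db/m control, and Fxyd2, a pump regulator, had 6269 CPM in db/db fructose, 4001 in db/db control and 3496 in db/m control. Fxyd2 differed by 0.65 (0.50 to 0.80) for the diet, less than 2-fold.

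Junction and adhesion genes gave 1 higher of 12 measured for the diet and 2 lower of 14 for the genotype, near the 10.2% and 15.9% of all measured genes. Tspan8, a tetraspanin, was called in both, with 265 CPM in db/db fructose, 128 in db/db control and 273 in db/m control, but its genotype ratio was 0.088 among cells with at least 10 Aqp1 UMIs and its diet ratio 0.46 as a mean over cells. Tjp1, the scaffold protein ZO-1, had 174 CPM in db/db fructose, 144 in db/db control and 323 in db/m control, with -1.17 (-1.97 to -0.44) for the genotype, and -0.81 with median-of-ratios scaling. Epcam, with 1616 CPM in db/db fructose, 1312 in db/db control and 1464 in db/m control, and Cdh16, kidney cadherin, with 1521 CPM in db/db fructose, 1072 in db/db control and 1358 in db/m control, were the most abundant of those named and differed by less than 2-fold. Pax8, the transcription factor of nephron epithelium, had 359 CPM in db/db fructose, 840 CPM in db/db control and 468 CPM in db/m control, with -1.22 (-1.65 to -0.81) for the diet and 0.84 (0.48 to 1.20) for the genotype. The diet ratio was -0.92 among cells with fewer than 3 UMIs of other cells' markers.

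Keratins and actin-binding genes gave 2 higher and 1 lower of 13 measured for the diet. For the genotype they gave 2 higher and 1 lower of 14. Over all measured genes 10.2% were higher and 1.65% lower for the diet, and 0.937% and 15.9% for the genotype. Single cells carried most of the calls of this list. S100a6, a calcium-binding protein, had 5637 CPM in db/db fructose, 1560 in db/db control and 608 in db/m control. In db/db fructose 96.6% of it, 1379 of 1427 counts, was in the deepest cell, of 33557 UMIs, and the other 30 cells had 219 CPM. Without the deepest cell of each library the diet ratio was -2.93 in place of 1.85. The same cell held all 296 counts of Sprr1a and 152 of 153 of Sbsn, both genes of cornified epithelium, along with 114 Aqp1 and 104 Fst UMIs, and it held 63.2% of the Krt18 counts. Krt18 had 150 CPM in db/db fructose, 56.0 in db/db control and 164 in db/m control, with 1.42 (0.24 to 2.83) for the diet, and 0.21 without the deepest cells. Among cells with fewer than 3 UMIs of other cells' markers its ratios were 3.42 and -3.26, against 1.42 and -1.55. Tmsb4x, an actin-binding peptide abundant in immune cells, had 22 counts in db/db fructose, 49 in db/db control and 23 in db/m control, and 67.3% of the db/db control counts were in the cell that held the mononuclear phagocyte markers.

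Of 22 tubular injury genes, 7 were measured in each comparison, with 1 lower and none higher in each. The lower share over all measured genes was 1.65% for the diet and 15.9% for the genotype. The kidney injury gene Havcr1 had 5 counts in db/db fructose, 0 in db/db control and 0 in db/m control, and Vcam1 had 0 in db/db fructose, 0 in db/db control and 12 in db/m control. Spp1, osteopontin, the most abundant of them, had 16722 CPM (16222 to 17234) in db/db fructose, 10289.5 CPM (9735 to 10868) in db/db control and 7037 CPM (6765 to 7317) in db/m control. The log2 ratio was 0.70 (0.61 to 0.79) for the diet and 0.55 (0.45 to 0.65) for the genotype, both under 2-fold. A single cell held 44.7% of the db/m control counts, and among cells with at least 0.8% Cryab the genotype ratio was 2.09, and 1.46 among those with fewer than 3 UMIs of other cells' markers. In cells with Aqp1 alone Spp1 had 6756 CPM in db/db fructose, 2106 in db/db control and 977 in db/m control, and in Fst-rich cells 23122 CPM in db/db fructose, 21642 in db/db control and 20300.1 in db/m control. Spp1 was in the same order in thick ascending limb type cells, at 5184 CPM in db/db fructose, 2684 in db/db control and 1663 in db/m control.

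Gdf15, a stress-induced secreted cytokine, was the injury gene called for the diet. It had 53 counts in db/db fructose, or 209 CPM (157 to 274), 141 in db/db control, or 1128 CPM (950 to 1330), and 241 in db/m control, or 672 CPM (590 to 762.3). The log2 ratio was -2.43 (-2.91 to -1.96) for the diet and 0.75 (0.44 to 1.05) for the genotype, and the diet ratio was -1.57 as a mean over cells. The genotype ratio was 1.83 among cells with at least 10 Aqp1 UMIs. It was detected in 12 of 31, 12 of 19 and 27 of 46 cells, and no cell held more than 20.6% of a library's counts. In Fst-rich cells Gdf15 had 154 CPM in db/db fructose, 1479 in db/db control and 428 in db/m control, and in cells with Aqp1 alone 71.6 CPM in db/db fructose, 952 in db/db control and 126 in db/m control. In Slc14a2-rich cells it had 414 CPM in db/db fructose, 681 in db/db control and 1575 in db/m control, and in those with none of the 3 genes at 10 UMIs 854 CPM in db/db fructose, 729 in db/db control and 1182 in db/m control. The low level of db/db fructose against db/db control was thus seen in Fst-rich cells and cells with Aqp1 alone, and not in the last set. In the Slc14a2-rich set db/db control had 1 cell with 2 Gdf15 counts. Its interval of 82.4 to 2458 CPM includes the db/db fructose level. The injury gene called for the genotype was Sox4, a progenitor transcription factor, with 75.1 CPM in db/db fructose, 48.0 in db/db control and 167 in db/m control from 19 counts in db/db fructose, 6 in db/db control and 60 in db/m control and a ratio of -1.80, or -3.08 among cells with fewer than 3 UMIs of other cells' markers.

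**Figure D4:**
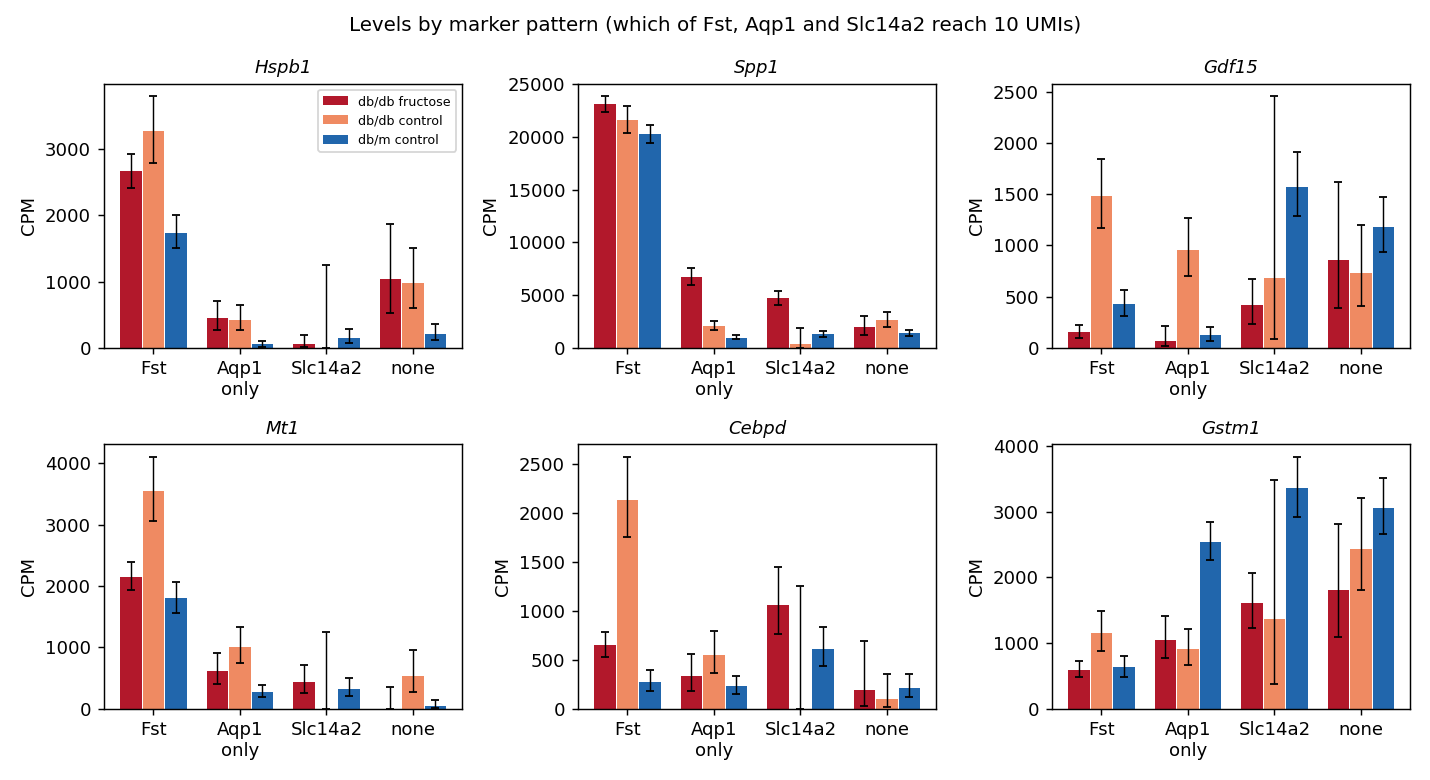
CPM with 95% Poisson intervals of 6 genes in the selected cells, split by which of Fst, Aqp1 and Slc14a2 reached 10 UMIs, for each library. The Slc14a2 set of db/db control is 1 cell, and Gdf15 has its tallest db/db control bars in the Fst and Aqp1-only sets, at 1479 and 952 CPM.

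The glucocorticoid response list gave 2 higher and none lower of 8 measured for the genotype, Sgk1 and Ddit4. Of all measured genes 0.937% were higher for the genotype. For the diet the list gave 1 higher of 7, Zbtb16, beside 10.2% of all measured genes. Zbtb16 had 86.9 CPM in db/db fructose, 32.0 in db/db control and 27.9 in db/m control. Sgk1, a kinase that raises sodium transport, had 257 CPM in db/db fructose, 248 CPM in db/db control and 61.3 CPM in db/m control, with a genotype ratio of 2.02 (1.18 to 2.87). Ddit4, an inhibitor of mTORC1, had 332 CPM in db/db fructose, 288 in db/db control and 97.6 in db/m control, with 1.56 (0.85 to 2.28). Its ratio was 0.80 among cells with fewer than 3 UMIs of other cells' markers. Outside that list, Pdk4, which limits glucose oxidation, had 103 CPM in db/db fructose, 232 in db/db control and 61.3 in db/m control, with 1.92 (1.07 to 2.79), and Fabp3, a fatty acid binding protein, had 273 CPM in db/db fructose, 160 in db/db control and 50.2 in db/m control, with 1.67 (0.68 to 2.68). Sgk1, Ddit4 and Fabp3 had diet ratios of 0.05, 0.20 and 0.77, so the level of db/db fructose was near that of db/db control or above it. Pdk4 was lower in db/db fructose, at -1.18 (-2.00 to -0.36), and -0.59 among cells with fewer than 3 UMIs of other cells' markers. By kind of cell, Pdk4 had 142 CPM in db/db fructose, 288 in db/db control and 146 in db/m control in Fst-rich cells, under 2-fold for the genotype there, and in cells with Aqp1 alone it had 1 count in db/db fructose, 11 in db/db control and 2 in db/m control. Sgk1 in Fst-rich cells had 358 CPM in db/db fructose, 365 in db/db control and 100.1 in db/m control, and Ddit4 191 CPM in db/db fructose, 211 in db/db control and 109 in db/m control, the last under 2-fold for the genotype. In thick ascending limb type cells the genotype ratio was 2.22 for Sgk1, 0.68 for Ddit4 and 0.98 for Pdk4.

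The metallothioneins Mt1 and Mt2, which bind zinc and copper, were the 2 genes higher of 15 measured oxidative stress genes for the genotype. Over all measured genes 0.937% were higher and 15.9% lower for the genotype, and 10.2% and 1.65% for the diet. Mt1 had 1545 CPM in db/db fructose, 1968 CPM in db/db control and 711 CPM in db/m control, with a genotype ratio of 1.47 (1.21 to 1.73). Most Mt1 counts were in Fst-rich cells, 348 of 391 in db/db fructose, 185 of 246 in db/db control and 198 of 255 in db/m control. There Mt1 had 2147 CPM in db/db fructose, 3553 in db/db control and 1802 in db/m control, under 2-fold for the genotype, and in cells with Aqp1 alone it had 621 CPM in db/db fructose, 1012 in db/db control and 278 in db/m control. Mt2 had 209 CPM in db/db fructose, 312 in db/db control and 72.5 in db/m control, with 2.11 (1.35 to 2.88), and the ratio was 2.71 to 2.80 in 3 alternative selections of cells. In thick ascending limb type cells the genotype ratio was 0.43 for Mt1 and 0.44 for Mt2. Prdx6, a peroxiredoxin, was the 1 gene lower, with 359 CPM in db/db fructose, 248 in db/db control and 574 in db/m control and -1.21 (-1.81 to -0.66), or -0.85 with median-of-ratios scaling. Gstm1, a glutathione transferase, had 873 CPM in db/db fructose, 1272 in db/db control and 2194 in db/m control, with -0.79 (-1.04 to -0.54) for the genotype and -0.54 (-0.84 to -0.24) for the diet, under 2-fold in each. In cells with Aqp1 alone Gstm1 had 1050 CPM in db/db fructose, 911 in db/db control and 2536 in db/m control, but in Fst-rich cells 592 CPM in db/db fructose, 1152 in db/db control and 628 in db/m control. None of 14 measured genes of this list was past 2-fold for the diet.

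Immediate-early genes, which tissue digestion is known to induce, gave 1 higher of 17 measured for the diet and 1 of 18 for the genotype. The higher share over all measured genes was 10.2% for the diet and 0.937% for the genotype. Cebpd, a transcription factor of acute responses, had 640 CPM in db/db fructose, 1120 in db/db control and 307 in db/m control, with 1.87 (1.50 to 2.24) for the genotype and -0.81 (-1.14 to -0.47) for the diet. The genotype ratio was 2.57 and the diet ratio -1.73 among cells with fewer than 3 UMIs of other cells' markers. Btg2 had 2090 CPM in db/db fructose, 3416 in db/db control and 1879 in db/m control, and Atf3 1624 CPM in db/db fructose, 2512 in db/db control and 1497 in db/m control, highest in db/db control but under 2-fold. Socs3, an inhibitor of cytokine signalling, had 920.5 CPM in db/db fructose, 680 in db/db control and 357 in db/m control. Klf2 was the diet call at 1.12 (0.53 to 1.76), and stood at -0.074 with the Cryab minimum at 0.2%.

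Of 18 activin, bone morphogenetic protein, Notch and Wnt signalling genes, 1 of 5 measured was lower for the diet (1.65% of all measured genes). For the genotype 1 of 8 was lower (15.9% of all measured genes). Id1 was the first, with 126 CPM in db/db fructose, 344 in db/db control and 622 in db/m control and -1.44 (-2.15 to -0.75), or -0.99 as a mean over cells. Jag1, a Notch ligand, was the second, with 43.5 CPM in db/db fructose, 56.0 in db/db control and 176 in db/m control and -1.65 (-3.02 to -0.52). Id3 had 573 CPM in db/db fructose, 816 in db/db control and 1336 in db/m control. All 3 genes were among the 20 leading genes of subset 3, and among cells with at least 10 Aqp1 UMIs the genotype ratios were 0.86 for Id1, 2.05 for Id3 and 0.78 for Jag1. Fst, of the same list, had a genotype ratio of 0.96 (0.80 to 1.13), just under 2-fold (1.33 with median-of-ratios scaling), with 36.3% of the db/m control counts in 1 cell, and of 2.27 among cells with fewer than 3 UMIs of other cells' markers.

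**Figure D5:**
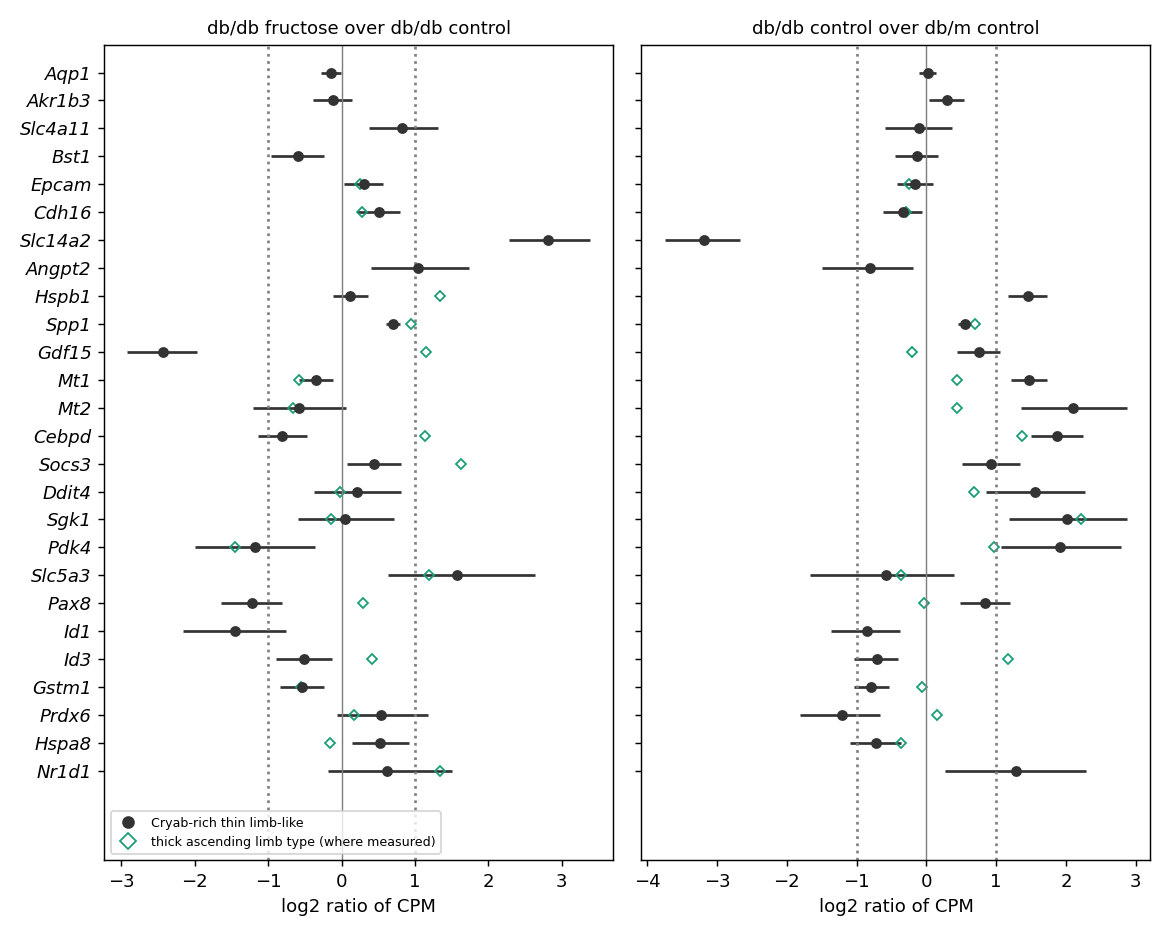
log2 ratios of CPM with 95% counting intervals for 26 genes in the selected cells (filled circles) and, where measured, in thick ascending limb type cells (open diamonds), left for the diet and right for the genotype. Dotted lines mark 2-fold. Gdf15 lies at -2.43 on the left while its diamond lies at 1.15. In the right panel Hspb1, Mt1, Mt2, Cebpd, Ddit4, Sgk1 and Pdk4 lie beyond 2-fold higher, and Slc14a2 and Prdx6 beyond 2-fold lower. Nr1d1 also lies beyond 2-fold higher there, but with too few counts to be measured.

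Among immune genes, the class II calls came from 1 cell. Of the class II genes, 4 were measured and all 4 were called, higher in db/db control than in both other libraries. The matching shares of all measured genes were 1.65% lower for the diet and 0.937% higher for the genotype. Cd74 had 1 count in db/db fructose, 143 in db/db control and 3 in db/m control, and in the same libraries H2-Aa had 0, 54 and 0, H2-Ab1 0, 39 and 2, and H2-Eb1 0, 42 and 0. One db/db control cell of 9303 UMIs held 142 of the Cd74 counts, all of H2-Aa and H2-Ab1 and 40 of H2-Eb1. That cell also held 17 C1qa and 15 C1qb UMIs, markers of macrophages, beside 169 Cryab and 48 Aqp1 UMIs. None of the 4 measured class I genes was past 2-fold in either comparison, and H2-D1 had 565 CPM in db/db fructose, 680 in db/db control and 655 in db/m control. Of 19 interferon response genes, none of 4 measured was called for the diet. For the genotype 1 of 5 was lower, beside 15.9% of all measured genes. That gene, Isg15, had 10 counts in db/db fructose, 0 in db/db control and 25 in db/m control, and 92% of the db/m control counts were in 1 cell. Of 16 inflammatory mediators, 1 of 2 measured was higher for the diet, beside 10.2% of all measured genes. This was Cxcl16 at 1.24, and its ratio was 0.15 without the deepest cells. None of 3 was called for the genotype.

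None of 13 measured glycolysis genes, none of 22 nuclear genes of oxidative phosphorylation and none of 28 ribosomal protein genes was past 2-fold in either comparison. The called shares over all measured genes were 10.2% higher and 1.65% lower for the diet, and 0.937% and 15.9% for the genotype. The median log2 ratios of the 3 lists were 0.13, 0.44 and 0.27 for the diet, beside 0.30 over all measured genes, and 0.26, -0.05 and -0.07 for the genotype, beside -0.37. The mitochondrial genome gave 2 lower and none higher of 13 for the diet, with a median of -0.74. For the genotype it gave 1 higher and none lower of 13, with a median of 0.53. Over all measured genes 1.65% were lower for the diet and 0.937% higher for the genotype. mt-Co3 had 7340 CPM in db/db fructose, 14338 CPM in db/db control and 10099 CPM in db/m control. The other kept barcodes had 21044 CPM in db/db fructose, 39811 in db/db control and 28750 in db/m control. Matrix genes gave 1 higher of 11 measured for the diet, Ccn2 with 41 and 5 counts, and none of 9 for the genotype. Of all measured genes 10.2% were higher for the diet. The Ccn2 ratio was 2.02 (0.68 to 3.71), and 0.39 among cells with at least 10 Aqp1 UMIs. In the other kept barcodes Ccn2 had 141 CPM in db/db fructose, 41.4 in db/db control and 60.9 in db/m control.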

How the data were processed

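The authors deposited UMI counts per gene and barcode. The submitters' processing notes name Cell Ranger 6.0.0 and the mm10 build. Per the labels' protocols, kidneys were perfused, digested with collagenase and pronase, and freed of red cells, debris and dead cells. Cells and gene lists (20 of markers, 23 of pathways) were chosen with earlier results of these data known. Counts of the selected cells were summed per library and expressed as CPM. Intervals are exact Poisson (CPM), conditional binomial (ratios) and Clopper-Pearson (shares), at 95%, and ratios against no counts used a floor of 3 counts. With 1 library per group nothing was tested. Doublets were scored with Scrublet at 0.8% per 1000 barcodes and not removed. Subsets came from Leiden clustering in scanpy 1.11.5 (1000 variable genes, 15 components, 15 neighbours, resolution 0.5). Thick ascending limb type cells had at least 5 Slc12a1 UMIs and at most 1 each of Aqp2 and Slc34a1, and proximal type cells the same for Slc34a1. Named genes were the rule's genes and markers, the 10 highest and 10 lowest ratios of each comparison above the library-wide level, the 20 leading genes, and up to 4 of each list. Others were named after their values were seen. Alternatives changed the selection, minimum, scaling and weighting of cells. Ratios were checked on simulated data with 200 genes changed 4-fold. There, 5.57% of unchanged genes were past 2-fold in either direction for the diet and 15.3% for the genotype. Counting error and the rescaling of the simulated totals both enter these shares. Gene positions are from GENCODE M21. Some genes of the lists are not reported here.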

Additional observations from a re-analysis of the deposited data

Results flagged for a closer look

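Gdf15 differed in direction between the 2 cell kinds compared for the diet. Its log2 ratio of db/db fructose over db/db control was -2.43 in the Cryab-rich thin limb-like cells, from 209 CPM in db/db fructose and 1128 CPM in db/db control. In thick ascending limb type cells it was 1.15, from 127 CPM in db/db fructose and 56.9 CPM in db/db control. With 1 library per group the difference was not tested.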

How the results depend on the processing

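No paired analysis was possible because each group is 1 library and no result comes from a test. With Slc12a1, Aqp2 and Slc34a1 all at 0, the shares of cells were 0.0518%, 0.00471% and 0.0800% in db/db fructose, db/db control and db/m control. That left 10, 1 and 9 cells, so no gene ratios were computed. With Cryab at 0.8% of UMIs, the db/m control share was 0.240% and 245 genes were lower for the genotype. The minimum of 2500 UMIs, the same minimum CPM, leaving out the deepest cell and the Aqp1 minimum were chosen after seeing the data. Among barcodes with at least 2500 UMIs the shares were 0.698%, 0.401% and 1.65%. Median-of-ratios scaling gave 111 genes higher and 67 lower for the diet, and 69 higher and 242 lower for the genotype. A mean over cells gave 356 higher for the diet. A minimum of 10 counts gave 398 higher and 155 lower for the diet and 89 higher for the genotype. Leaving out cells with 3 or more UMIs of other cells' markers gave 13 lower for the diet and turned S100a6 for the genotype to -0.17. Cryab at 0.2% turned Klf2 for the diet to -0.074. The same minimum CPM gave 51 higher for the diet and 53 lower for the genotype. Without the deepest cell of each library, S100a6 and Sbsn for the diet turned to -2.93 and -2.02. Cells with at least 10 Aqp1 UMIs gave 281 lower for the genotype and turned F3 for the diet to -0.68, Jag1 for the genotype to 0.78 and Tspan8 for the genotype to 0.088. The causes were not tested. Of 280 ratios of named genes, 70 moved past their interval and 1 turned without cells holding other cells' markers. None moved with at least 500 genes or with the highest doublet scores removed. These 2 settings kept the same 31, 19 and 46 cells, so they could not move a ratio. At most 30% mitochondrial UMIs kept 18 of the 19 db/db control cells and all cells of the other libraries, and none moved. The other counts and shares stayed within 1.5 times or within their interval. Depth limits db/db control most, where 1 count in the summed cells is 8.00 CPM.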

Other observations

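Dbp, a clock-driven transcription factor, had 126 CPM in db/db fructose, 16.0 CPM in db/db control and 19.5 CPM in db/m control, from 32 counts in db/db fructose, 2 in db/db control and 7 in db/m control. Nr1d1, the nuclear receptor Rev-erb alpha, had 209 CPM in db/db fructose, 136 in db/db control and 55.8 in db/m control. In the other kept barcodes Dbp had 26.5 CPM in db/db fructose, 2.62 in db/db control and 5.09 in db/m control and Nr1d1 86.1, 18.7 and 10.7 CPM in the same order of libraries. Of the 16 clock genes, 1 of 4 measured (Dbp) was higher for the diet and none of 2 was called for the genotype. Over all measured genes 10.2% were higher for the diet. Nr1d1 was not called for the diet. For the genotype it was not measured, since its db/db control counts were below the minimum of 20, although the 136 and 55.8 CPM lie more than 2-fold apart.

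One db/m control cell of 6124 UMIs held 279 of the library's 504 Kap counts, 95 of 131 Napsa counts and 78 of 126 Slc27a2 counts, proximal tubule genes, with 25 Cryab and 3 Aqp1 UMIs. Napsa had 59.3 CPM in db/db fructose, 32.0 in db/db control and 365 in db/m control in the selected cells, and 102 CPM in db/m control without that cell.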
